A study of Homo sapiens with 12 samples.

Results

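The comparison set 6 arrays of cells isolated by their position in an invading spheroid, 3 of leader cells and 3 of follower cells, against 6 arrays of invasive control cells, and asked what leaders and followers had in common against those controls. It covered every gene with a symbol in the platform annotation, which gave 14884 genes, each taken from its probeset of highest average signal. The table held 53617 probesets, of which 16098 carried 1 symbol, 0 carried several and 37519 were not named. All 12 arrays of the series were used.

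All cells were H1299, an established human non-small cell lung cancer line, stably carrying Dendra2, a fluorescent protein that light converts from green to red. Spheroids had invaded a basement membrane gel, and chosen cells were converted by laser, released by enzyme and sorted. Leader cells were taken from the tip of the invading chains and follower cells from behind it. The invasive controls were invasive cells that had been photoconverted and invasive cells that had not, so that leaders, followers and the first control group were all photoconverted and the second control group was not. Each array was made from a well of 10 sorted cells, and each of the 4 groups had 3 arrays. The sources do not state that the wells came from separate cultures, so the p-values measure the spread between these wells, which may be technical. The study worked with 1 cell line here, and how many leaders and followers the control wells held is not stated.

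In collective invasion, carcinoma cells leave a tumour as a connected group. Leader cells at the tip pull on the matrix through integrins and actin and open a track, while followers stay joined to them and move behind. The 2 states differ in signalling, with VEGF and Notch among the pathways known to separate tip from trailing cells in vessels and tumours. A difference shared by leaders and followers against the invasive control cells is a different quantity, because it leaves out what separates the 2 states from each other.

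Values are deposited log2 signals, so a difference of 1 is a doubling of signal. The authors had already quantile normalised them between arrays, which gives every array nearly the same distribution. Correlation between arrays of a group ranged from 0.598 to 0.754, and no pair of columns was identical. The line markers KRT8, KRT18, KRT7, VIM, EPCAM and GAPDH averaged 3.29 to 3.83 on the isolated arrays and 3.49 to 4.04 on the control arrays. Of these 6 genes, 4 averaged higher and 2, VIM and GAPDH, lower in isolated cells, with a median difference of 0.14. KRT18 was among the higher, at 4.05 in isolated cells and 3.66 in controls. VIM, the intermediate filament of mesenchymal cells, averaged 5.59 ± 0.96 in isolated cells and 6.47 ± 0.71 in controls (SD, n = 6 each), while EPCAM, an epithelial surface protein, averaged 2.38 and 2.27. Marker lists of endothelium (4 genes tested), fibroblasts (2), leukocytes (4) and alveolar or airway cells (6) held 0 genes at an unadjusted p under 0.05. Over all genes 2.28% were higher and 3.38% lower at that level, so 0 in lists this short is not informative.

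PRTFDC1 was the one gene that passed the test, and its signal fell in leader and follower cells alike. PRTFDC1 is a homologue of HPRT1, the enzyme that salvages hypoxanthine and guanine for purine nucleotides. Its log2 level was 2.22, 3.31 and 2.77 on the leader arrays and 2.24, 3.59 and 2.86 on the follower arrays, against 6.02, 5.96 and 5.25 on the photoconverted and 4.46, 5.47 and 5.64 on the non-photoconverted control arrays. The highest isolated array lay below the lowest control array. Isolated cells averaged 2.83 ± 0.55 and control cells 5.47 ± 0.57 (SD, n = 6 each), a log2 difference of -2.63 (standard error 0.30), or 6.2-fold lower signal, with an adjusted p of 0.0279 in limma. That call is 0.00672% of all genes tested. The 10 cells of a well are a bulk sample, so fewer cells with the transcript and less transcript per cell cannot be told apart.

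The PRTFDC1 difference was -2.70 for leaders and -2.57 for followers against the same controls, and leaders minus followers differed by -0.13 (standard error 0.42). It was -2.91 against photoconverted controls alone (limma adjusted p = 0.0772) and -2.36 against non-photoconverted controls alone (adjusted p = 0.16). The call was kept without leader replicate 2, follower replicate 2 or non-photoconverted replicate 1, and it was lost without any one of the other 9 arrays, where the limma adjusted p ran from 0.0501 to 0.154. With follower replicate 3 and non-photoconverted replicate 2 left out together, an alternative chosen after seeing the data, the difference was -2.55 and the adjusted p 0.319. THNSL1, which overlaps PRTFDC1 in the RefSeq annotation, averaged 2.82 in isolated cells and 3.16 in controls.

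**Figure D1:**
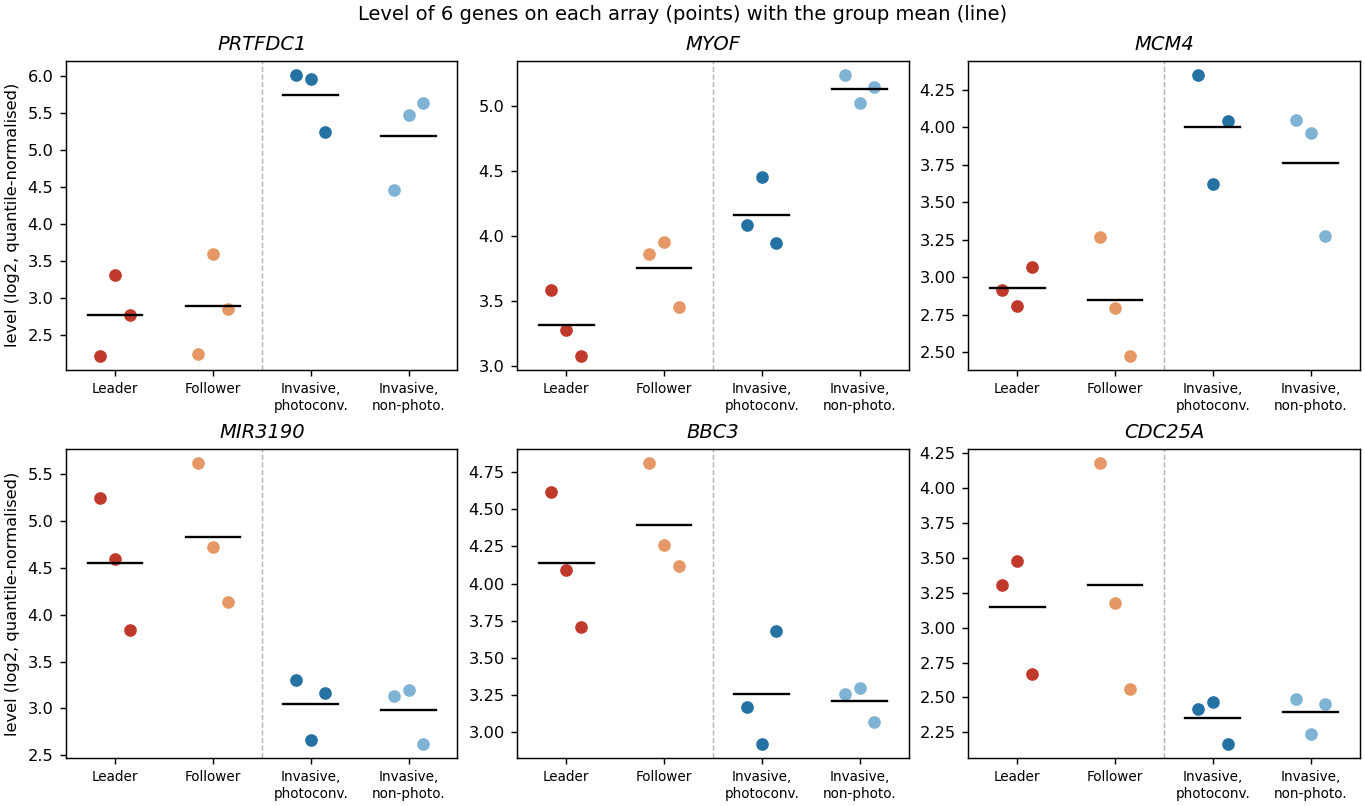
Log2 level of 6 genes on each of the 12 arrays, with leader and follower arrays left of the dashed line and invasive control arrays right of it. Points are arrays and lines are group means. PRTFDC1 is below 4 on every isolated array and above 4 on every control array, and MIR3190 and BBC3 run the other way.

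Over all genes, 340 were higher and 503 lower in isolated cells at an unadjusted p under 0.05, which is 2.28% and 3.38% of those tested. At that level there were 821 genes for leaders minus controls, 771 for followers minus controls and 613 for leaders minus followers. None of these 3 had a gene past an adjusted p of 0.05 in limma, and their lowest adjusted p was 0.0875 and 0.256 for PRTFDC1 in leaders and followers. The first 2 share their control arrays, so only their separate values are given. Between photoconverted and non-photoconverted controls 724 genes were below an unadjusted p of 0.05, with 0 past the adjusted threshold. These counts are out of 14884 genes, and a cut at 0.05 passes a share near 0.05 where nothing differs. The counts at that level in each gene list below stand beside 2.28% higher and 3.38% lower over all genes.

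MYOF, the ferlin that takes part in membrane fusion and repair, came next. It read 3.58, 3.28 and 3.08 on the leader arrays and 3.86, 3.95 and 3.45 on the follower arrays, against 4.08, 4.45 and 3.94 on the photoconverted and 5.24, 5.02 and 5.14 on the non-photoconverted control arrays. Isolated and control arrays touched, since follower replicate 2 lay just above photoconverted replicate 3. The difference of -1.11 (standard error 0.15) had a limma adjusted p of 0.0714. It was -1.60 against non-photoconverted controls (adjusted p = 0.0293) and -0.62 against photoconverted controls (adjusted p = 0.998), and the 2 control groups themselves were -0.98 apart, photoconverted minus non-photoconverted. Among 20 tested ferlins, annexins and other membrane repair genes MYOF alone was below an unadjusted p of 0.05, or 5% lower against 3.38% of all genes. ANXA5, a calcium-dependent phospholipid-binding protein, averaged 5.24 ± 0.99 in isolated cells and 5.84 ± 0.33 in controls (SD, n = 6 each).

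HPRT1, the salvage enzyme related to PRTFDC1, averaged 3.82 ± 1.12 in isolated cells and 5.33 ± 1.14 in controls (SD, n = 6 each). Its range was 2.52 to 5.17 on isolated and 4.23 to 6.72 on control arrays, so the groups overlapped, and the difference of -1.51 had a limma adjusted p of 0.844. Of 21 genes of purine synthesis and salvage, PRTFDC1 and HPRT1 were lower at an unadjusted p under 0.05 and 0 were higher, and the list's median was -0.021, against 0.0065 over all genes. That median was -0.18 without leader replicate 3, and it turned to 0.013 without photoconverted replicate 2 and to 0.027 without non-photoconverted replicate 3. ATIC, which makes the last steps of new purine synthesis, averaged 3.72 and 4.35, and GMPS, the GMP synthase, averaged 4.92 and 5.65 in isolated and control cells.

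In 45 genes the 6 isolated arrays did not overlap the 6 control arrays. In 24 of them, 0.161% of all genes, the isolated arrays were lower, and in 21, 0.141%, they were higher. With random labels, 6 arrays separate fully from 6 others with a probability of 0.00216, both directions together. Separation alone therefore does not mark a gene as different. The 12 of each direction with the lowest p are described next. Other than PRTFDC1, none passed the adjusted test, where their limma adjusted p ran from 0.439 to 0.754.

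Of the lower genes, MCM4, a subunit of the replicative helicase, lay at 2.48 to 3.27 (median 2.86) on isolated arrays and at 3.28 to 4.35 (median 4.0) on control arrays, a difference of -0.99 (standard error 0.19) although the nearest arrays almost met. ANAPC15, a subunit of the anaphase-promoting complex, ran from 2.56 to 3.11 in isolated cells and from 3.32 to 4.80 in controls, with a difference of -0.64 against photoconverted and -1.33 against non-photoconverted controls. DHX38, a helicase of the second step of splicing, averaged 2.78 ± 0.31 and 3.52 ± 0.23, and RBM25, a splicing regulator, averaged 3.5 ± 0.31 and 4.11 ± 0.13 in isolated and control cells (SD, n = 6 each). These ranges lay side by side with little room between them. GTF3A, the factor that starts 5S ribosomal RNA transcription, was at 3.9 to 4.36 in isolated cells and 4.42 to 4.83 in controls. DHX38 overlaps TXNL4B, and GTF3A overlaps MTIF3, in the annotation.

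Also among them, ANO6, a calcium-activated phospholipid scramblase, ran from 2.88 to 4.22 (median 3.70) on isolated and from 4.61 to 5.74 (median 5.10) on control arrays, a difference of -1.48 (standard error 0.28) that was -1.34 in leaders and -1.62 in followers. CLIC1, an intracellular chloride channel protein, differed by -1.21 (standard error 0.24), and all 5 of its probesets had the same sign. Isolated arrays read 3.76 to 4.28 and control arrays 4.35 to 6.02. TMEM147, a protein of the endoplasmic reticulum membrane that overlaps an antisense gene, averaged 4.23 ± 0.23 in isolated cells and 5.08 ± 0.33 in controls, and OGT, which attaches N-acetylglucosamine to nuclear and cytosolic proteins, averaged 3.89 ± 0.49 and 5.13 ± 0.43 (SD, n = 6 each). CCDC117 and CUTA differed by -1.45 and -0.95.

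**Figure D2:**
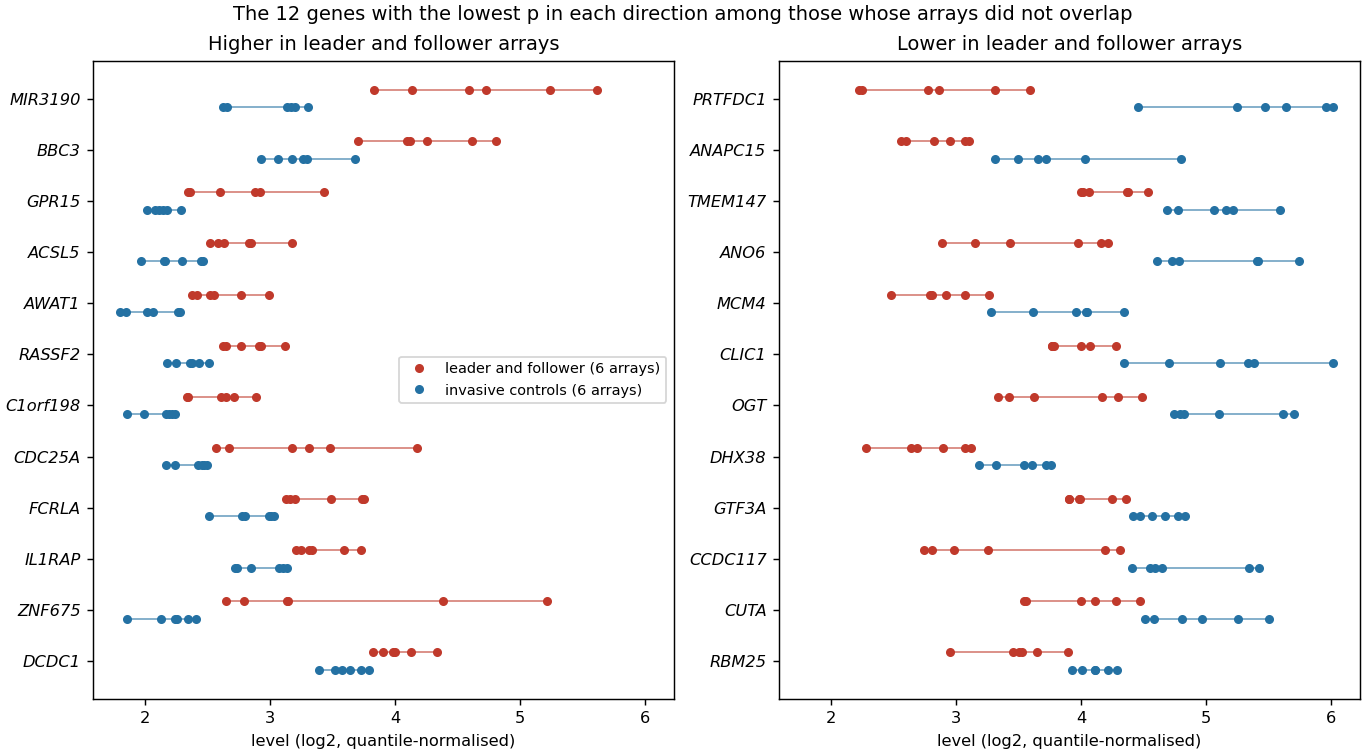
Log2 level on every array for the 12 genes with the lowest p in each direction among genes whose isolated and control arrays did not overlap, with the isolated arrays drawn above the controls of the same gene. Each point is an array and each line the range of 6 arrays. The widest gaps are those of PRTFDC1 and MIR3190, and most other genes leave a narrow gap.

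Among the higher genes, BBC3 and the microRNA gene MIR3190 stood at the top, and they share a locus. BBC3 encodes PUMA, a BH3-only protein that p53 induces and that triggers mitochondrial apoptosis. Its level was 4.61, 4.09 and 3.71 on the leader arrays and 4.81, 4.26 and 4.12 on the follower arrays, against 3.17, 2.92 and 3.68 on the photoconverted and 3.26, 3.30 and 3.07 on the non-photoconverted control arrays. The lowest isolated array, leader replicate 3, was only just above the highest control array. The difference was 1.03 (standard error 0.20, limma adjusted p = 0.454). MIR3190 read 5.24, 4.59 and 3.83 on the leader arrays and 5.62, 4.73 and 4.13 on the follower arrays, against 3.30, 2.66 and 3.17 on the photoconverted and 3.13, 3.20 and 2.62 on the non-photoconverted control arrays, a difference of 1.68 (standard error 0.29, limma adjusted p = 0.439). On the isolated side the arrays fell in nearly the same order for both genes, with follower replicate 1 and leader replicate 1 highest and leader replicate 3 lowest. Of the 3 probesets of MIR3190, 2 had this sign.

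RefSeq places MIR3190 inside BBC3 on the opposite strand. Whether the amplified and labelled material kept its strand was not settled, so the 2 results cannot be counted as separate evidence. The array measures RNA from the locus and not the mature microRNA, and BBC3 and microRNA transcripts were not told apart. Mature sequences in the RefSeq table are shown for the 5 microRNA genes named here, because the seed pairs with a microRNA's targets. Coordinates and sequences are from RefSeq, GRCh38.p14, written 5′ to 3′ with bases 2 to 8, the seed, in capitals.
hsa-miR-3190-3p (chr19:47226988-47227010, plus strand): uGUGGAAGguagacggccagaga
hsa-miR-365a-5p (chr16:14309300-14309322, plus strand): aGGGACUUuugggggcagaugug
hsa-miR-365a-3p (chr16:14309340-14309361, plus strand): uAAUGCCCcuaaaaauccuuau
hsa-miR-4782-5p (chr2:113721338-113721359, minus strand): uUCUGGAUaugaagacaaucaa
hsa-miR-4782-3p (chr2:113721298-113721319, minus strand): uGAUUGUCuucauaucuagaac
hsa-miR-4451 (chr4:85722515-85722531, plus strand): uGGUAGAGcugaggaca
hsa-miR-626 (chr15:41691645-41691663, plus strand): aGCUGUCUgaaaaugucuu
The 7 sequences printed carry 7 different seeds.

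Of 1098 microRNA genes tested, 40 were higher and 20 lower at an unadjusted p under 0.05, with a median of 0.041. These are 3.64% and 1.82%, against 2.28% and 3.38% of all genes. The list's median was 0.0064 against photoconverted controls, where 533 averaged lower, and 0.083 against non-photoconverted controls. Over all genes those medians were 0.0066 and 0.024. The list was dim, at a median level percentile of 28.5. MIR365A ran from 5.55 to 6.86 (median 6.33) on isolated and from 4.05 to 6.24 (median 5.07) on control arrays, a difference of 1.29 (standard error 0.32) that was 1.59 in leaders and 0.98 in followers. MIR4451 ran from 3.85 to 4.89 on isolated and from 4.66 to 6.84 on control arrays, a difference of -1.23, and MIR4782 differed by -0.72. These 3 overlapped between isolated and control arrays. MIR626 lies inside MGA, a MAX-binding repressor, on the same strand. Both were high on photoconverted replicates 2 and 3 alone, at 6.16 and 7.97 for MIR626 and 4.79 and 5.68 for MGA, while the isolated arrays stayed at 1.82 to 2.59 and 2.37 to 2.99. Without photoconverted replicate 1 the 2 genes passed the limma test, each with an adjusted p of 0.0477. With all arrays their adjusted p was 0.853 and 0.755.

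The other 10 higher genes differed by 0.42 to 1.35. CDC25A, the phosphatase that activates cyclin-dependent kinases at the start of S phase, ran from 2.56 to 4.18 (median 3.24) on isolated and from 2.17 to 2.49 (median 2.44) on control arrays, a difference of 0.85 (standard error 0.25). ZNF675, a zinc finger gene, differed by 1.35 (standard error 0.41), with leader replicate 1 at 5.22 and follower replicate 1 at 4.38 far above the other isolated arrays at 2.65 to 3.14. IL1RAP, the co-receptor of interleukin-1, averaged 3.40 ± 0.21 in isolated cells and 2.93 ± 0.19 in controls (SD, n = 6 each). GPR15, a chemoattractant receptor, was 0.62 higher, with 0.30 in leaders and 0.94 in followers. ACSL5, which activates long-chain fatty acids, and AWAT1, an acyltransferase that makes wax esters, were 0.52 and 0.56 higher. RASSF2, a Ras-binding protein, C1orf198, FCRLA, a B-cell protein related to Fc receptors, and DCDC1, of the doublecortin family, lay 0.42 to 0.56 higher. GPR15, ACSL5, AWAT1 and C1orf198 were dim genes, at or below percentile 13.7 of mean level.

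CDC14B, a phosphatase of the cell cycle, showed how much 1 array could decide. Its control arrays read 3.71, 3.85 and 4.15 with photoconversion and 2.40, 4.87 and 4.44 without it, against 2.28 to 3.38 on the isolated arrays. Without non-photoconverted replicate 1 its limma adjusted p was 0.0481, and with all arrays it was 0.764 for a difference of -1.14.

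Genes with high signal were lower in isolated cells as a class. Of the 1489 genes in the brightest 10%, whose mean level was 3.70 or more, 71.3% averaged lower in isolated cells, against 48.5% of all genes, and their median difference was -0.23. Among them 184 genes were lower and 27 higher at an unadjusted p under 0.05. In the dimmest 10% of genes 33.9% averaged lower and the median was 0.056. The median of the brightest 10% was -0.25 for leaders and -0.20 for followers, and it was -0.11 against photoconverted and -0.31 against non-photoconverted controls. The control groups differed in the same direction, with -0.19 for photoconverted minus non-photoconverted cells.

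Single arrays and the normalisation bore on that result. Genes above a level of 6 numbered 151, 94 and 120 on the leader arrays and 159, 192 and 76 on the follower arrays, against 103, 186 and 143 on the photoconverted and 157, 332 and 163 on the non-photoconverted control arrays. The means were 132 ± 43.4 and 181 ± 79.1 (SD, n = 6 each), with p = 0.227 by an exact two-sided permutation test whose smallest possible p is 0.00216, and the counts overlapped widely. The difference of -48.7 genes was -18.4 without non-photoconverted replicate 2, -7.2 with follower replicate 3 also left out, and -1.17 after cyclic loess. With follower replicate 3 and non-photoconverted replicate 2 left out, 56.5% of the brightest 10% averaged lower, and after cyclic loess between arrays 50.8%, close to the share over all genes. With single arrays left out the share ran from 63.9% (follower replicate 3) to 75.6% (follower replicate 2).

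**Figure D3:**
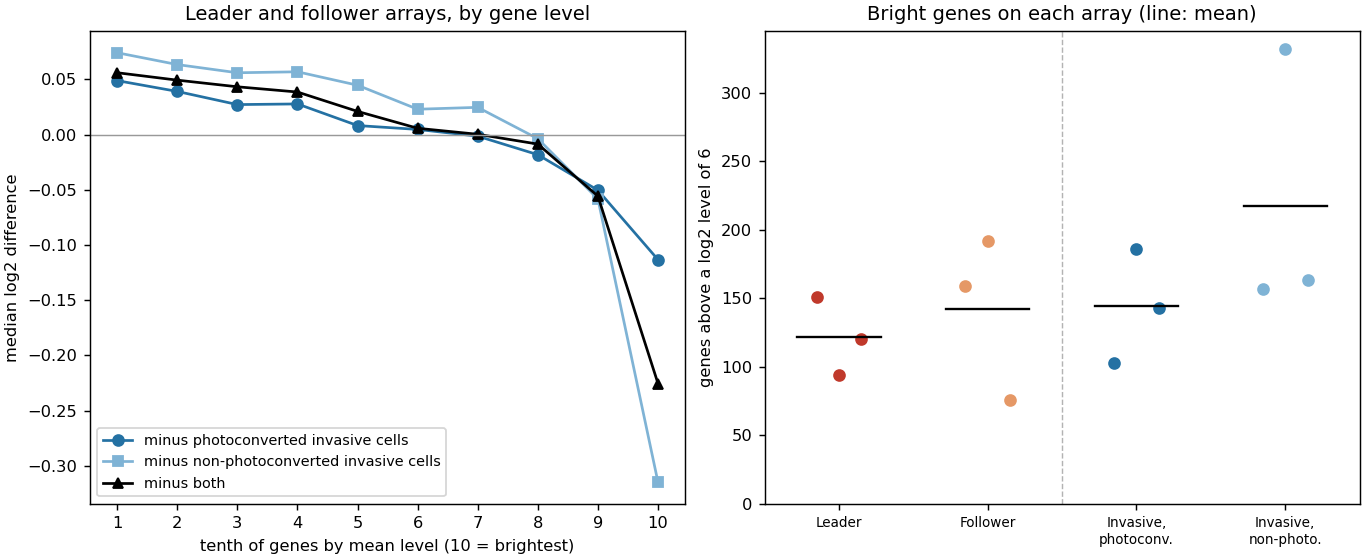
Left, median log2 difference of leader and follower arrays from the invasive controls in each of 10 equal bins of genes by mean level, for each control group and for both. Right, number of genes above a log2 level of 6 on each array, with group means as lines. The medians fall below 0 in the brightest bin, further against non-photoconverted cells, whose replicate 2 has 332 such genes.

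Splicing factors and snRNP proteins were mostly lower in isolated cells. Of 67 tested, 51 averaged lower, 11 of them at an unadjusted p under 0.05, with 0 higher at that level, and the median was -0.29. The list's median level percentile was 92.1, so it belongs mostly to the bright genes. HNRNPA1, which binds nascent transcripts and splice sites, ran from 3.97 to 5.57 (median 5.0) on isolated and from 5.35 to 6.56 (median 5.81) on control arrays, a difference of -0.95. SNRNP25, of the minor spliceosome, averaged 2.67 ± 0.15 and 3.31 ± 0.53 in isolated and control cells (SD, n = 6 each). The SNRNP25 difference was -0.23 against photoconverted and -1.05 against non-photoconverted controls. The list's median was -0.091 against photoconverted and -0.36 against non-photoconverted controls, and -0.11 after cyclic loess. Without follower replicate 3 it was -0.18, and without that array and non-photoconverted replicate 2 it was -0.12, with 42 genes averaging lower and 6 lower and 3 higher at an unadjusted p under 0.05.

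RNA polymerase II, Mediator and elongation factors averaged lower in 28 of 37 genes with a median of -0.22, and 3 were lower and 1 higher at an unadjusted p under 0.05. The lower ones were the elongation factor subunits SUPT5H and SUPT4H1 (-0.61 and -1.34) and SUPT16H of the histone chaperone FACT (-0.72), and the higher one was the Mediator subunit MED21 (0.63). SUPT4H1 was -2.27 in leaders and -0.40 in followers. SUPT5H was -0.26 against photoconverted and -0.95 against non-photoconverted controls. Translation factors averaged lower in 15 of 21 (median -0.21, or -0.080 without non-photoconverted replicate 2), but in 11 of 21 after cyclic loess (median -0.053). Against photoconverted controls their median was -0.073. EIF5B, which joins ribosomal subunits, was at 2.38 to 3.64 in isolated cells and 3.45 to 5.36 in controls. Its difference was -0.68 against photoconverted and -1.66 against non-photoconverted controls. EEF1G, an elongation factor subunit, scattered from 2.31 to 10.99 over isolated arrays and from 4.97 to 9.88 over control arrays, so the groups overlapped. Its difference of -2.41 was -3.84 in leaders and -0.98 in followers.

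The direction of the cytosolic ribosomal proteins depended on scaling. Of 52 cytosolic ribosomal proteins 39 averaged lower, with 6 lower and 1 higher at an unadjusted p under 0.05 and a median of -0.14 that turned to 0.048 after cyclic loess and was -0.048 without follower replicate 3. RPL14 averaged 3.27 ± 0.27 in isolated cells and 3.95 ± 0.35 in controls, and RPL35A averaged 5.54 ± 0.27 and 6.01 ± 0.22 (SD, n = 6 each). Ribosomal proteins have many processed pseudogenes, so their probesets may share signal. Of 73 mitochondrial ribosomal proteins 47 averaged lower (median -0.099), with 4 lower and 0 higher at an unadjusted p under 0.05. MRPS14 and MRPS21 differed by -1.67 and -1.44. The median of these 73 was -0.0082 against photoconverted and -0.12 against non-photoconverted controls. After cyclic loess it was -0.028, and 40 averaged lower. Their median level percentile was 82.3. Subunits of oxidative phosphorylation averaged lower in 12 of 15 (median -0.31), where COX4I1 of cytochrome c oxidase was the one member at an unadjusted p under 0.05, at 4.85 to 7.74 on isolated and 6.42 to 8.49 on control arrays. Of 77 such subunits listed only 15 were tested, at a median level percentile of 97.6, and 10 of them were among the brightest 10% of genes. The median of that list was -0.066 against photoconverted and -0.40 against non-photoconverted controls, and -0.19 after cyclic loess, where 9 averaged lower. Without follower replicate 3 it was -0.15, and with non-photoconverted replicate 2 also left out -0.10.

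Cholesterol and fatty acid synthesis was a list of lower genes with large single differences. Of 26 genes 21 averaged lower, with 6 lower and 0 higher at an unadjusted p under 0.05 and a median of -0.18. SCD, the desaturase that makes monounsaturated fatty acids, ran from 4.01 to 6.29 (median 5.39) on isolated and from 5.83 to 8.86 (median 7.12) on control arrays, a difference of -1.88 (standard error 0.55) that was -2.20 in leaders and -1.56 in followers. HMGCS1, which makes HMG-CoA, and FADS1, a fatty acid desaturase, differed by -0.88 and -0.39, of which FADS1 was -0.10 from photoconverted and -0.68 from non-photoconverted controls. MSMO1, a sterol oxidase, differed by -1.12, but by -2.04 in leaders and -0.20 in followers. The list's median was -0.11 against photoconverted and -0.44 against non-photoconverted controls, and without follower replicate 3 and non-photoconverted replicate 2 it was -0.079, with 16 genes averaging lower and 1 lower and 1 higher at an unadjusted p under 0.05.

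Small GTPases and sorting nexins of membrane traffic gave 7 lower and 0 higher genes of 30 at an unadjusted p under 0.05. ARL3, a GTPase of ciliary and lipidated cargo, ran from 3.61 to 4.80 (median 4.04) on isolated and from 4.22 to 8.0 (median 6.14) on control arrays, a difference of -2.0 (standard error 0.46). The Golgi GTPases ARF4 and ARF3 differed by -1.28 and -1.63, and the retromer sorting nexin SNX6 by -0.63. The SNX6 difference was -0.13 against photoconverted and -1.12 against non-photoconverted controls. All 4 overlapped between groups. Without follower replicate 3 and non-photoconverted replicate 2 there were 5 lower and 0 higher genes at that level. Of 26 autophagy genes only ATG3, which attaches LC3 to lipid, was below an unadjusted p of 0.05, with a difference of -1.48. That is 3.85% lower, against 3.38% of all genes.

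Proliferation genes gave mixed values. Replication and repair genes averaged lower in 33 of 47 with a median of -0.11, which was -0.032 without non-photoconverted replicate 2. MCM4, MCM3 of the same helicase (-0.48), the cyclin CCNE2 (-0.73) and XRCC5 of the end-joining complex (-1.06) were among the 5 lower at an unadjusted p under 0.05. The XRCC5 difference was -0.56 against photoconverted and -1.57 against non-photoconverted controls. Genes of G2 and mitosis had a median of 0.18 against photoconverted and -0.35 against non-photoconverted controls. Their mean level was 3.05 to 3.66 on isolated and 3.07 to 4.57 on control arrays, and non-photoconverted replicate 2 alone stood at 4.57. Without that array the median over both controls turned from negative to 0.098. CENPA, the histone H3 variant of centromeres, averaged 4.0 ± 0.35 in isolated cells and 3.18 ± 0.50 in controls, while the survivin gene BIRC5 averaged 2.77 ± 0.52 and 3.56 ± 0.77 (SD, n = 6 each).

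Stress genes differed by control group. Heat shock proteins and chaperonins averaged higher in 13 of 17 genes, with a median of 0.21, but the median was 0.52 against photoconverted and -0.058 against non-photoconverted controls, and it was -0.055 in leaders and 0.35 in followers. Leaving out leader replicate 1 gave a median of 0.083 and leaving out leader replicate 2 gave 0.36. PTGES3, the HSP90 co-chaperone p23, ran from 9.88 to 11.37 (median 10.35) on isolated and from 8.35 to 10.42 (median 9.38) on control arrays, a difference of 0.96 (standard error 0.29). BAG3, a co-chaperone induced by heat shock, differed by 0.38, and CDC37, which brings kinases to HSP90, by -0.69. CHORDC1, another HSP90 partner, averaged 0.60 higher, made of 1.48 in followers and -0.27 in leaders.

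Genes of the unfolded protein response averaged lower in 13 of 19, a majority that was not there without follower replicate 3 and non-photoconverted replicate 2, where 9 were lower and the median turned from -0.12 to 0.032. ATF5, a transcription factor of the integrated stress response, ran from 2.91 to 3.80 on isolated and from 3.77 to 4.73 on control arrays, a difference of -0.84 that was -0.81 against photoconverted and -0.87 against non-photoconverted controls. CALR, a chaperone of the endoplasmic reticulum, was instead -0.09 and -2.48 from the 2 control groups, in that order. Of 26 immediate early genes, which respond within minutes to many stimuli, 2 were higher and 3 lower at an unadjusted p under 0.05. KLF2 differed by 0.75, FOSL1 by -0.77 and IER2 by -0.52, and the list's median of 0.17 was -0.018 in leaders and 0.30 in followers.

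**Figure D4:**
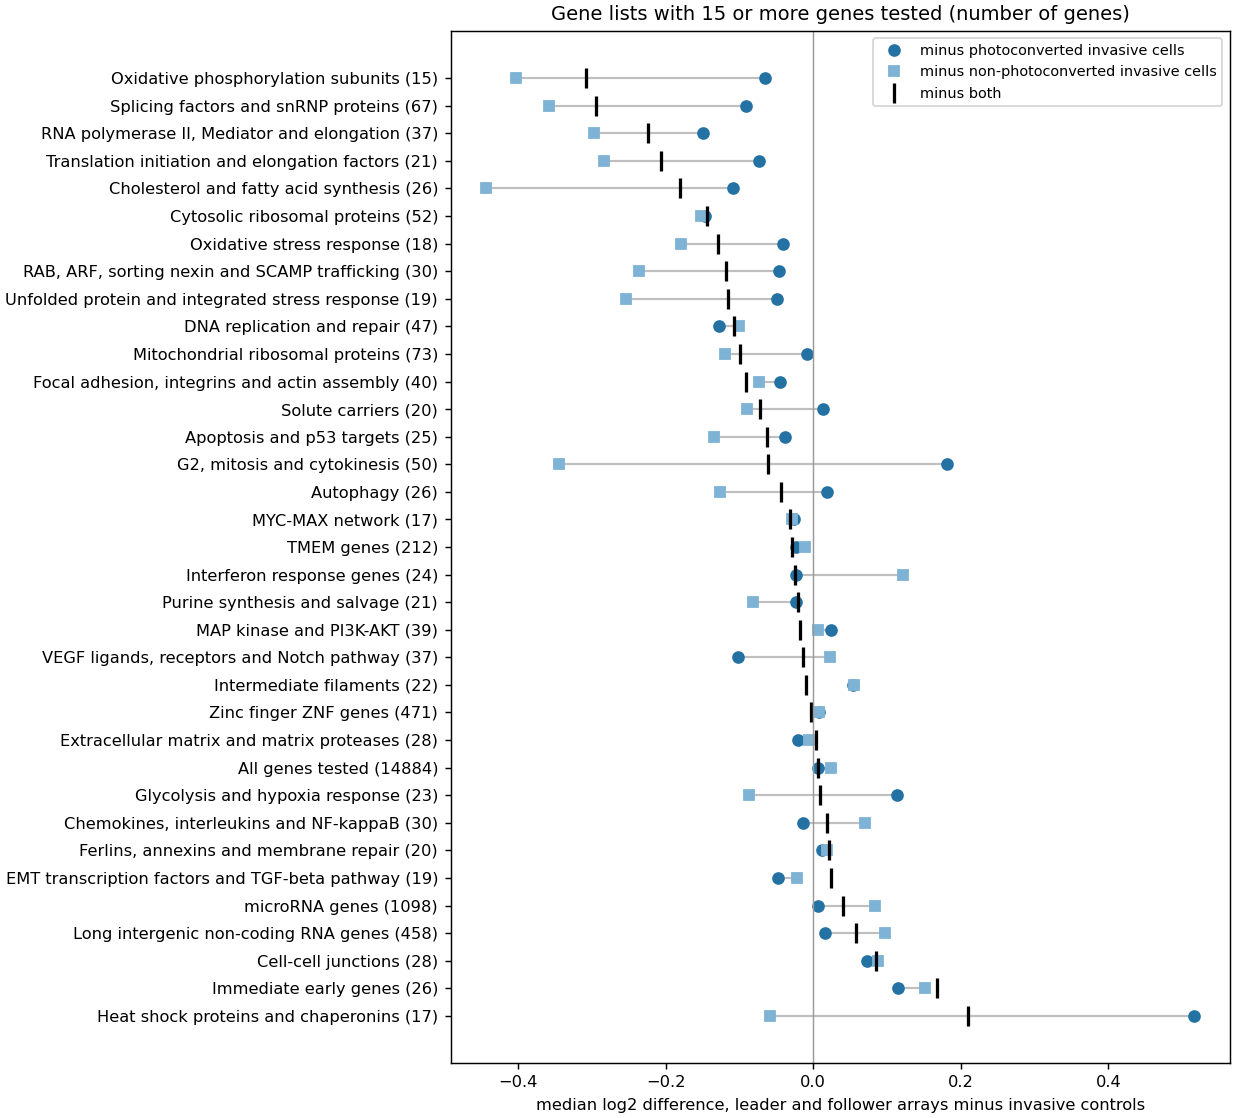
Median log2 difference of leader and follower arrays from photoconverted (circles), non-photoconverted (squares) and both (bars) groups of invasive cells, for each list with 15 or more genes tested. Numbers in brackets are genes tested. Splicing, oxidative phosphorylation and RNA polymerase lists lie left of 0, and the heat shock and G2 lists lie on opposite sides of 0 for the 2 control groups.

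Genes of adhesion and movement include integrins that grip the matrix and the machinery that builds actin filaments. Of 40 genes of focal adhesions, integrins and actin assembly, 4 were lower and 1 higher at an unadjusted p under 0.05. ACTR3, the ARP3 subunit of the complex that branches actin, ran from 3.25 to 4.82 (median 3.99) on isolated and from 3.73 to 6.55 (median 5.56) on control arrays, a difference of -1.42. The actin monomer binder PFN1 (-1.27), the GTPase RHOC (-0.47) and the formin DIAPH3 (-0.38) were the other lower members. Among 28 junction genes the desmosomal cadherin DSG2 alone was below that level, at 3.04 to 3.44 on isolated and 3.31 to 4.05 on control arrays. Its difference of -0.55 was the same in leaders and in followers. As the only member lower at an unadjusted p under 0.05 it made 3.57% of the junction list, against 3.38% of all genes. The junction list as a whole leaned the other way. Of the 28 genes 18 averaged higher and 10 lower in isolated cells, with a median of 0.085. That median was -0.049 with only genes above the median level.

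Ligands and receptors of VEGF and the Notch pathway had a median of -0.014 over 37 genes, with 1 higher and 3 lower at an unadjusted p under 0.05. The receptor NOTCH2 averaged 2.74 ± 0.18 in isolated cells and 3.16 ± 0.24 in controls (SD, n = 6 each), and the ligand JAG1 averaged 2.31 and 2.55. The fringe enzymes, which add sugars to Notch, went different ways, with LFNG at 0.33 and RFNG at -0.35. AXL, a receptor tyrosine kinase linked to invasion, ran from 3.18 to 4.70 (median 3.89) on isolated and from 4.35 to 6.07 (median 4.68) on control arrays, a difference of -0.98 (standard error 0.23) that was -1.44 in leaders and -0.51 in followers. In the list of p53 targets and apoptosis genes BBC3 was the one higher member of 25 and RRM2B, a p53-induced ribonucleotide reductase subunit, the one lower, at -0.46. In the MYC and MAX network MGA and SIN3A, a corepressor scaffold, were the 2 lower of 17. Lists of matrix proteins and proteases, of EMT and TGF-beta genes and of glycolysis held 0 genes at an unadjusted p under 0.05 among 28, 19 and 23 tested.

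**Figure D5:**
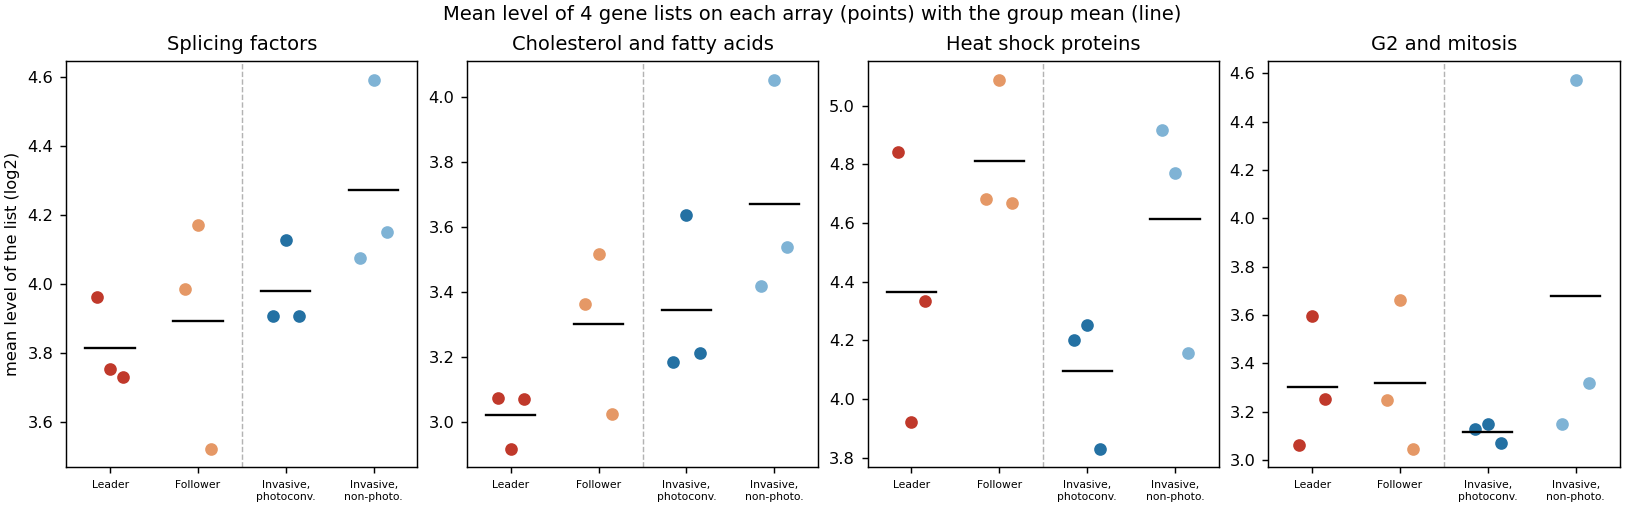
Mean log2 level of 4 gene lists on each array, with leader and follower arrays left of the dashed line and invasive controls right of it, and group means as lines. Non-photoconverted replicate 2 is the highest array for the splicing, cholesterol and G2 lists, and the heat shock list is lowest on photoconverted replicate 3.

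Of 458 long intergenic non-coding RNA genes 301 averaged higher, 13 of them at an unadjusted p under 0.05 against 3 lower, with a median of 0.058 at a median level percentile of 37.1. The median was 0.016 against photoconverted controls, where 225 averaged lower, 0.025 without non-photoconverted replicate 2, and 0.021 with follower replicate 3 also left out. LINC02297 ran from 1.78 to 3.27 (median 2.51) on isolated and from 1.46 to 1.93 (median 1.57) on control arrays, a difference of 0.88 (standard error 0.20), and LINC00207 averaged 3.30 ± 0.27 and 2.70 ± 0.21 in isolated and control cells (SD, n = 6 each). Both overlapped between groups. Among all 48144 probesets with a signal, named or not, 2656 were below an unadjusted p of 0.05 and 0 below an adjusted p of 0.05, where the lowest limma adjusted p was 0.253.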

How the data were processed

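The authors amplified RNA from 10 cells per well, hybridised it to Affymetrix Human Gene 2.0 ST arrays and deposited log2 values that were GC-adjusted, RMA background-corrected, quantile normalised and averaged per probeset. The submitters' processing notes name Partek 6.6. For the genome build, a version was not given in the sources used here. From the deposited log2 values, 5473 probesets at 0 on all arrays were left out. A 4-group limma 3.58.1 fit in R 4.3.3 (lmFit, eBayes, two-sided) gave the contrast, the mean of leader and follower groups minus the mean of the 2 control groups, with Benjamini-Hochberg adjustment over 14884 genes and a threshold of 0.05. Counts per array used exact permutation tests. Precision is limited by 6 arrays a side, and probeset signals carry no depth.

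Named genes were those past the adjusted threshold, the 12 of lowest p in each direction without overlap, genes called in an alternative, and up to 4 members of lowest p per list. Members and lists were chosen with earlier results of these data known. Replicate numbers did not pair arrays. The fit was tested on simulated data. Alternatives were other normalisations, filters, probeset rules, limma settings, the methods' t-test, single groups, and arrays left out.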

Additional observations from a re-analysis of the deposited data

Results flagged for a closer look

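Of 216 groups of 6 arrays checked by Dixon's ratio of gap to range, 10 had an array standing apart, and chance flags about 1 in 20 groups. Non-photoconverted replicate 2 was the highest control array for genes above a level of 6 (332, nearest 186), CCNE2 (4.41) and SIN3A (4.31), and the lowest for JAG1 (2.23). Photoconverted replicate 1 was highest for DIAPH3 (3.81) and lowest for HMGCS1 (3.02) among controls, and non-photoconverted replicate 1 was highest for AXL (6.07). Among isolated arrays leader replicate 1 was lowest for RRM2B (1.88) and highest for ARF4 (4.54), and follower replicate 2 was highest for HMGCS1 (4.53).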

How the results depend on the processing

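PRTFDC1 kept its direction in all 27 alternatives, with a difference of -2.91 to -2.36, and passed the adjusted test in 10 of them. The number of genes past the adjusted threshold, 1 in the comparison as reported, was 0 after cyclic loess, with all probesets tested, in the methods' t-test, with photoconverted controls alone, with leaders or followers alone and with 2 arrays left out together. Leaving out 1 array at a time gave 0 to 2 genes. The cause was not tested, except that more probesets tested or fewer arrays leave less power by construction. Genes higher at an unadjusted p under 0.05 numbered 340 of 14884 in the comparison as reported. They numbered 226 against photoconverted controls alone and 292 to 494 with 1 array left out. There were 151 with only genes above the median level, a smaller set, and 1528 of 48144 with all probesets. Genes lower numbered 503 of 14884 as reported, 387 to 593 with 1 array left out, and 1128 of 48144 with all probesets. Counts from sets of different size do not compare directly.

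The share of the brightest 10% of genes that averaged lower was 50.8% after cyclic loess, 60.4% against photoconverted controls, 56.5% with 2 arrays left out, and 63.9% to 75.6% with 1 left out. The replicate block gave 1 gene past the threshold, with 374 higher and 533 lower at an unadjusted p under 0.05, and PRTFDC1 at a limma adjusted p of 0.0145. Same-numbered arrays of different groups correlated at -0.071 to 0.217 in their deviations, and 5 of 12 arrays correlated best with their own number. Directions turned for CHORDC1 in leaders alone (-0.27), for UQCRH with 2 arrays left out (0.067), and for RB1CC1 (0.048) and GAPDH (0.057) against photoconverted controls. With 1 array left out the list medians kept their sign for splicing (-0.36 to -0.18), oxidative phosphorylation (-0.45 to -0.15), cytosolic ribosomal proteins (-0.23 to -0.048), cholesterol and fatty acids (-0.24 to -0.14) and heat shock (0.083 to 0.36). Each array came from 10 cells, and array values carry no count of molecules.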
